A study of Mus musculus with 11 samples.

Results

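The genotype by JZL184 interaction asks whether the cardiac transcriptional effect of JZL184 differed between mice with and without the Williams–Beuren deletion. It was measured for each gene as the JZL184 effect in CD mice minus the JZL184 effect in WT mice, that is (CD JZL184 − CD VEH) − (WT JZL184 − WT VEH), on the log2 scale. All 11 mice of the series entered a single 4-group model, and 11319 of the 22608 genes in the count table were abundant enough to be tested. A positive interaction means that the JZL184 effect was higher in CD than in WT mice, and a negative interaction that it was lower. A crossing gene is one that passed the test in each genotype separately, in opposite directions.

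The hearts came from male complete deletion (CD) mice, which carry 1 copy of the mouse interval matching the Williams–Beuren deletion, and from their wild-type (WT) littermates, all on a C57BL/6J background and 8 to 16 weeks of age. Mice were injected intraperitoneally for 10 days with vehicle (VEH) or with JZL184 at 8 mg/kg, and the sample labels call the controls untreated. WT VEH had 2 mice and each of the other groups (CD VEH, CD JZL184 and WT JZL184) had 3, and the RNA was labelled as ventricle. The deletion was present in every cell of the CD mice, so an effect arising in the heart and one arising elsewhere in the animal cannot be told apart.

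JZL184 blocks monoacylglycerol lipase, the product of Mgll, which breaks down the endocannabinoid 2-arachidonoylglycerol to arachidonic acid. The endocannabinoids act mainly on the cannabinoid receptors, encoded by Cnr1 and Cnr2, which couple to inhibitory G proteins. In the ventricle most RNA comes from cardiomyocytes, whose sarcomeres, calcium-handling proteins and ion channels carry each beat, while endothelial cells, pericytes, smooth muscle cells, fibroblasts and macrophages make up much of the remaining tissue.

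The libraries held between 69660232 and 92251443 estimated counts, so that 3 counts corresponded to 0.0306 to 0.0435 CPM (scaled counts per 1000000). Cardiomyocyte markers were abundant in every mouse, with summed levels from 36942 to 51013 CPM over 13 genes. The 9 skeletal muscle, 9 lymphocyte and 8 neutrophil markers all lay below the abundance filter, with sums of 1.88 to 3.14, 3.15 to 5.74 and 3.54 to 15.6 CPM. Of 5 atrial markers only Nppa was tested. One CD VEH mouse (A) stood apart in haemoglobin RNA, as described with the erythroid genes. The 13 protein-coding genes of the mitochondrial genome took 40.3% ± 1.23 of the counts in WT VEH (SD, n = 2), 45.7% ± 0.828 in WT JZL184 (n = 3), 44.1% ± 0.577 in CD VEH (n = 3) and 38.1% ± 1.89 in CD JZL184 (n = 3). This share had an interaction of −11.4 percentage points (the JZL184 effect in CD minus that in WT mice). An exact permutation test of this value, exchanging treatments within genotypes, gave a two-sided p = 0.005, the smallest that the 200 arrangements allow. Its null is no JZL184 effect on the share in either genotype, so it is no test of the interaction alone. The part of the share in the gene results below was not tested.

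The JZL184 effect differed between the genotypes for 5828 of 11319 genes (51.5%, edgeR quasi-likelihood test, Benjamini-Hochberg adjusted p under 0.05). It was positive for 2865 genes (25.3%) and negative for 2963 (26.2%), and 6549 genes passed at an unadjusted p under 0.05. In 2862 of the positive and 2955 of the negative genes the estimated effects had opposite signs in WT and CD mice. Calling genes for a large difference between these effects itself favours opposite signs, and the share over all tested genes was not counted. Crossing was seen for 2295 genes, of which 1185 (10.5% of those tested) fell in WT and rose in CD mice and 1110 (9.81%) rose in WT and fell in CD mice. No gene was called in the same direction in both genotypes by edgeR or by DESeq2, and 1 gene was so at an unadjusted p under 0.05 in both. The remaining called genes had passed in CD mice alone (1377), in WT mice alone (977) or in neither (1179).

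**Figure D1:**
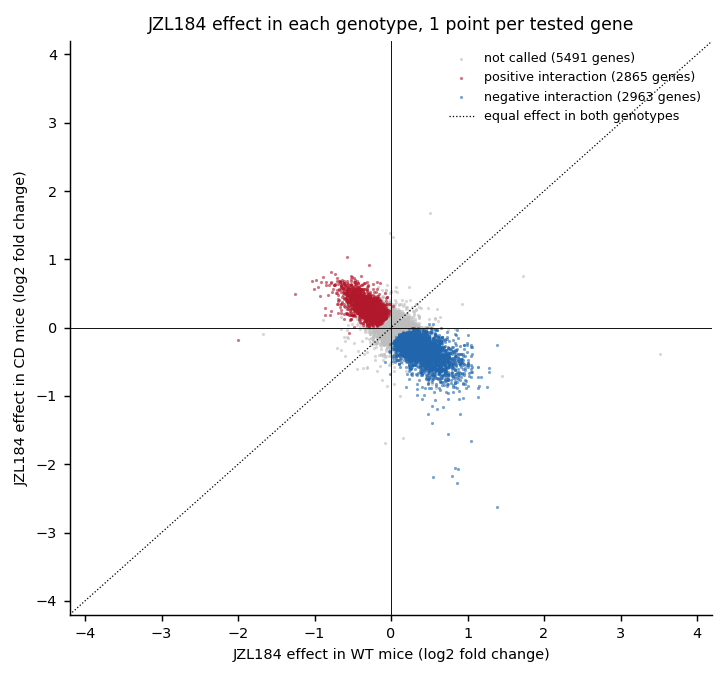
Each point is 1 of 11319 tested genes, placed by its JZL184 effect in WT mice (horizontal axis) and in CD mice (vertical axis), both as log2 fold changes. Genes with a positive interaction (2865, red) lie mostly in the upper left and genes with a negative interaction (2963, blue) mostly in the lower right, while the dotted line marks equal effects.

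The effects were of like size in the genotypes, with a median absolute log2 fold change of 0.30 in WT and 0.28 in CD mice over the called genes. Averaged over the genotypes, JZL184 changed 0 genes (0% of those tested) by edgeR, with 589 genes at an unadjusted p under 0.05, and 4 genes by DESeq2. The genotype effect averaged over the treatments passed for 123 genes (1.09%) by edgeR and 442 by DESeq2, the 14 tested genes of the deleted interval among those of edgeR. Negative interactions were the larger ones, with 633 genes at a log2 value of −1 or below against 189 at 1 or above. For 1564 genes (13.8%) each of the 5 WT VEH and CD JZL184 mice was above each of the 6 WT JZL184 and CD VEH mice, and for 1629 genes (14.4%) each was below.

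The count of crossing genes depended on the WT VEH mice, of which there were 2. It was 447 without WT VEH mouse C and 829 without mouse D, against 2295 with all mice. It lay between 1435 and 1499 without CD VEH mouse A or E or without CD JZL184 mouse A or E, while the count of genes with an interaction stayed between 4579 and 6412 when any single mouse was left out.

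The interaction also followed transcript length. Tested genes with a length were put in 5 classes of equal size. In the class with the shortest transcripts (median 1489 bases, taking the longest annotated transcript of each gene) 47.5% of genes were negative and 5.47% positive, and in the class with the longest (median 6991 bases) 13.1% were negative and 47.9% positive. The median interaction went from −0.30 to 0.30 between these ends, and Pearson's r between log2 length and the interaction was 0.40 over 11240 genes, which share the same 11 libraries. With the median rather than the longest transcript of a gene r was 0.20, and for GC content it was −0.05. A fit with a length offset for each mouse called 5369 genes. What gave rise to the length trend was not tested, and RNA integrity and the dates of extraction and library preparation are not given in the sources used here. Below, the length offset is that of the longest transcript unless the median transcript is named.

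**Figure D2:**
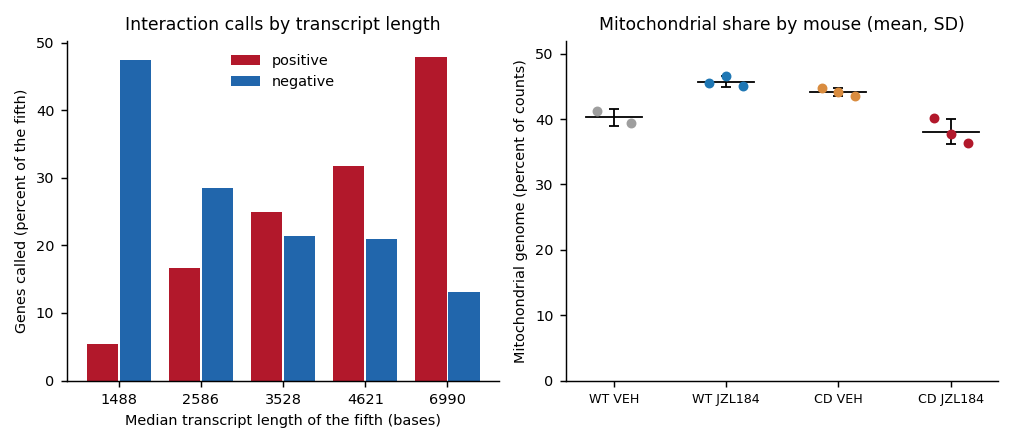
Left, percent of genes with a positive (red) or negative (blue) interaction in 5 classes of equal size by transcript length, from a median of 1489 bases to one of 6991 bases. Right, percent of counts from the mitochondrial genome in each mouse with the group mean and SD, lowest in CD JZL184 (38.1%) and highest in WT JZL184 (45.7%).

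Genes of cardiomyocyte contraction and excitation were mostly positive, and their lists had the highest medians. All lists and their members were chosen with earlier results of these data known, so their counts are descriptions and no independent support. Each count below is to be read beside the shares over all tested genes, 25.3% positive and 26.2% negative. Among 18 tested genes of calcium handling 11 were positive and 2 negative (median 0.76, against −0.007 over all tested genes), where 25.3% of all tested genes were positive. Of the 18, 10 fell in WT and rose in CD mice, against 10.5% of all tested genes. Ryr2, the calcium release channel of the sarcoplasmic reticulum (GRCm38 chr13:11553102-12106945), had 1366 and 1279.8 CPM in WT VEH, 854, 596 and 925 CPM in WT JZL184, 913, 1159 and 849 CPM in CD VEH, and 1649.8, 1321 and 1562 CPM in CD JZL184. All 5 WT VEH and CD JZL184 mice lay above the other 6, and the interaction was 1.37 ± 0.24 (log2 ± SE, edgeR adjusted p = 0.000795). Atp2a2, which encodes the pump that returns calcium to the sarcoplasmic reticulum (GRCm38 chr5:122453513-122502225), had 9842 and 10380.3 CPM in WT VEH, 7963, 6210.2 and 7481 CPM in WT JZL184, 7284, 8643 and 7541 CPM in CD VEH, and 10641, 11149 and 11374 CPM in CD JZL184. Its groups separated in the same way, with an interaction of 0.99 ± 0.15 (log2 ± SE, edgeR adjusted p = 0.000409). Slc8a1, the sodium-calcium exchanger, reached an interaction of 1.34 ± 0.23. Sri, a short calcium-binding protein named after its value was seen, was negative (−0.85).

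Of 24 tested ion channel and gap junction genes 15 were positive and 2 negative, with a median of 0.68, and 11 crossed. Kcnd3, a subunit of the channel of the transient outward potassium current (GRCm38 chr3:105452330-105674002), had 17.5 and 15.9 CPM in WT VEH, 12.3, 11.6 and 10.9 CPM in WT JZL184, 11.4, 11.7 and 10.5 CPM in CD VEH, and 18.3, 16.3 and 17.2 CPM in CD JZL184. The WT VEH and CD JZL184 mice lay above all others, both JZL184 effects passed, at −0.53 in WT and 0.63 in CD mice, and the interaction was 1.15 ± 0.11 (log2 ± SE, edgeR adjusted p = 8.10e-05). The negative genes were Gja5 (−0.68) and Gjc1 (−0.40), connexins of conduction tissue and vessels, again named after their values were seen.

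Of 35 sarcomere and Z-disc genes 23 were positive and 3 negative (median 0.76, crossing in 14). Myh6, the main myosin heavy chain of the adult mouse ventricle, had 14941 and 15369 CPM in WT VEH, 12358, 8279 and 11707 CPM in WT JZL184, 9910.2, 12929 and 10598 CPM in CD VEH, and 14925, 14767 and 16035 CPM in CD JZL184, without overlap between the 5 and the 6 mice and with an interaction of 0.94 ± 0.21 (log2 ± SE, edgeR adjusted p = 0.00321). Myh7, the foetal myosin heavy chain (GRCm38 chr14:54970684-54994626), had 261 and 160.0 CPM in WT VEH, 94.6, 109 and 116 CPM in WT JZL184, 105, 121 and 78.2 CPM in CD VEH, and 175, 153 and 166 CPM in CD JZL184. It was highest in 1 WT VEH mouse, and all 5 WT VEH and CD JZL184 mice lay above the other 6, with an interaction of 1.69 ± 0.26 (log2 ± SE, edgeR adjusted p = 0.000442). Ttn, the giant spring protein of the sarcomere, had 3960.4 and 2849.6 CPM in WT VEH, 1766, 1022 and 2191 CPM in WT JZL184, 1450.0, 1986 and 1446 CPM in CD VEH, and 3384, 1862 and 2624 CPM in CD JZL184, and CD JZL184 mouse C lay within the range of the vehicle-treated CD mice. Its interaction was 1.73 ± 0.40 (log2 ± SE, edgeR adjusted p = 0.00423), but its longest transcript has 106824 bases and the length offset brought the value to 0.53 (edgeR adjusted p = 0.0501), whereas with the median transcript it was 1.72.

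The 3 negative sarcomere genes were the short Myoz2 (−0.67), Myl2 (−0.50) and Csrp3 (−0.48), named after their values were seen. The positive sarcomere genes had a median transcript length of 5648 bases and the others one of 1733 bases. With the length offset 21 of the 35 genes were positive and the median was 0.70. Among the 13 cardiomyocyte markers, which overlap with this list, 6 were positive (Corin, Mybpc3, Actn2, Myh6, Ryr2 and Ttn), 1 negative (Myl2) and 6 not called, with a median of 0.17. With the length offset 6 were positive and the median was 0.53. Their summed level was 50585 to 51013 CPM in WT VEH, 36942 to 48810 CPM in WT JZL184, 43266 to 46810 CPM in CD VEH and 46787 to 50440 CPM in CD JZL184. Both WT VEH mice lay above all others, and the ranges of the other groups overlapped.

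Genes of the dystrophin complex and costamere, which tie the sarcomere to the membrane, were positive in 12 of 18 and negative in 0 (median 0.65). Sorbs2, an adaptor protein of these sites, had an interaction of 1.24 ± 0.20. Cardiac transcription factors were positive in 10 of 11 (median 0.49), and Hand2 (0.31, edgeR adjusted p = 0.141) was the exception. Myocd, a coactivator of serum response factor that drives cardiac and smooth muscle genes (GRCm38 chr11:65176561-65269989), had 45.4 and 42 CPM in WT VEH, 26.3, 20 and 26.2 CPM in WT JZL184, 24.8, 26.5 and 26.8 CPM in CD VEH, and 39.4, 38.4 and 43.5 CPM in CD JZL184. Its levels in WT VEH and CD JZL184 were above all others, with an interaction of 1.49 ± 0.14 (log2 ± SE, edgeR adjusted p = 8.93e-05). Tbx20, a T-box factor of the heart, had 0.98 ± 0.14. Rbm20, which controls the splicing of titin, and Rbm24 led the splicing list with 1.16 ± 0.19 and 0.98 ± 0.15, and 16 of 33 genes of that list were positive against 5 negative (median 0.17).

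Regulators of energy use were also mostly positive. Of 11 PPAR and ERR regulators 7 were positive and 1 negative (median 0.44). Ppara, the nuclear receptor that activates fatty acid oxidation (GRCm38 chr15:85734983-85802819), had 38 and 31 CPM in WT VEH, 21, 16.1 and 18.1 CPM in WT JZL184, 23.5, 24.8 and 21.7 CPM in CD VEH, and 37.4, 34.1 and 39.9 CPM in CD JZL184. WT VEH and CD JZL184 overlapped with each other and lay above the other groups, and the interaction was 1.58 ± 0.16 (log2 ± SE, edgeR adjusted p = 9.06e-05). Esrrg, an orphan receptor of oxidative muscle, had an interaction of 1.19 ± 0.13, whereas Pparg, best known from fat and macrophages and named after its value was seen, had −1.18. Without WT VEH mouse D the positive count was 4.

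Of 22 fatty acid oxidation genes 10 were positive and 1 negative (median 0.35). Cpt1b, the muscle form of the enzyme that commits fatty acids to mitochondrial import (GRCm38 chr15:89416405-89425863), had 478 and 529 CPM in WT VEH, 359.7, 364 and 377 CPM in WT JZL184, 376, 421 and 368 CPM in CD VEH, and 502, 491 and 482 CPM in CD JZL184. The 5 and 6 mice did not overlap and the interaction was 0.80 ± 0.11 (log2 ± SE, edgeR adjusted p = 0.00024). Acsl1, which activates fatty acids by joining them to coenzyme A, had 0.75 ± 0.13, and the negative gene was the fatty acid transporter Cd36 (−0.31), named after its value was seen. The count of positive genes rose to 17 with the length offset (median 0.55) and was 5 without WT VEH mouse D.

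In the list of mTORC1, AMPK and folliculin genes 16 of 32 were positive and 3 negative (median 0.26). Prkaa2, the AMPK catalytic subunit prominent in muscle (GRCm38 chr4:105029874-105109890), had 144 and 128 CPM in WT VEH, 91.5, 74 and 92.5 CPM in WT JZL184, 85.3, 97.6 and 82.5 CPM in CD VEH, and 137, 128 and 139 CPM in CD JZL184. The values of WT VEH and CD JZL184 lay above all others, with an interaction of 1.27 ± 0.14 (log2 ± SE, edgeR adjusted p = 0.000132). Fnip2, a folliculin partner, had 1.61 ± 0.36, and CD JZL184 mouse E at 40.6 CPM was above the other mice of its group (18.6 and 20.2 CPM). The negative genes were Lamtor5, Lamtor4 and Lamtor2 (−0.66, −0.60 and −0.28), short subunits of the Ragulator complex that were named after their values were seen.

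**Figure D3:**
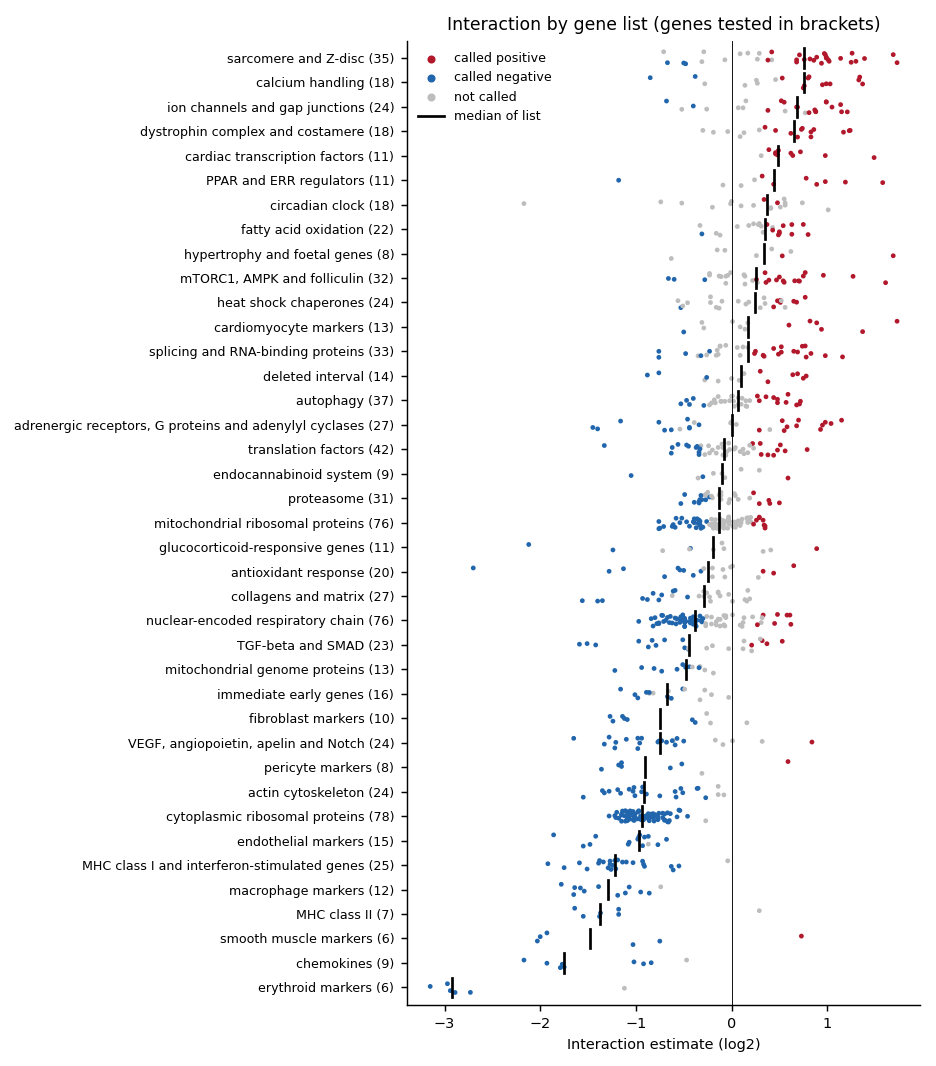
Interaction estimate (log2, horizontal axis) of each tested gene in every list with at least 5 tested genes, lists ordered by their median (black bar). Lists of contraction, excitation and cardiac transcription factors sit on the positive side, with medians of 0.49 to 0.76, and lists of vascular, immune and ribosomal genes on the negative side.

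Genes of the vessel wall went the other way. Endothelial markers were negative in 14 of 15 and positive in 0 (median −0.97), against 26.2% negative over all tested genes. Of the 15, 13 crossed and 13 separated the 5 from the 6 mice, against 9.81% and 14.4% of all tested genes. Emcn, an endothelial sialomucin of capillaries and veins (GRCm38 chr3:137341067-137432185), had 25 and 26.6 CPM in WT VEH, 47.3, 57.7 and 47.8 CPM in WT JZL184, 49.1, 38.8 and 49.1 CPM in CD VEH, and 22.9, 27.7 and 23.9 CPM in CD JZL184. Every mouse of WT JZL184 and CD VEH was above every mouse of the other groups, with an interaction of −1.86 ± 0.17 (log2 ± SE, edgeR adjusted p = 6.94e-05). Pecam1, an adhesion molecule of endothelial junctions (GRCm38 chr11:106654217-106750628), had 116 and 112 CPM in WT VEH, 178, 181 and 178 CPM in WT JZL184, 163, 147 and 161 CPM in CD VEH, and 105, 125 and 118 CPM in CD JZL184. Its interaction was −1.08 ± 0.11 (log2 ± SE, edgeR adjusted p = 8.93e-05), and that of Cdh5, the endothelial cadherin, was −0.87 ± 0.11. The exception was Vwf at −0.87 (edgeR adjusted p = 0.0936). In whole ventricle, fewer cells of a type and less RNA per cell cannot be told apart, and this holds for each cell type below. With the length offset all 15 were negative.

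The summed level of the 15 endothelial markers was 1031 to 1032 CPM in WT VEH, 1500.2 to 1641 CPM in WT JZL184, 1312 to 1433 CPM in CD VEH and 975 to 1102 CPM in CD JZL184. Signals, receptors and transcription factors of vessels followed the same order, with 18 of 24 VEGF, angiopoietin, apelin and Notch genes negative and 1 positive (median −0.75). Kdr, Flt1 and Tek are also among the endothelial markers, so these lists are not independent. Meox2, a homeobox factor of heart endothelium (GRCm38 chr12:37108540-37179534), had 8.27 and 8.83 CPM in WT VEH, 17.2, 16.6 and 19.1 CPM in WT JZL184, 18.9, 15.4 and 19.1 CPM in CD VEH, and 11.8, 11.8 and 11.5 CPM in CD JZL184. It was lowest in WT VEH, and the 5 and 6 mice did not overlap, with an interaction of −1.65 ± 0.13 (log2 ± SE, edgeR adjusted p = 5.13e-05). Sox18, another endothelial factor, had −1.28 ± 0.26. The receptors Kdr (−0.77), Flt1 (−0.68) and Tek (−0.96) and the Notch ligand Dll4 (−1.21) were negative, while the 1 positive gene was the ligand Vegfa (0.84, edgeR adjusted p = 0.00232), which cardiomyocytes make. These 5 were named after their values were seen.

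Pericyte markers were negative in 6 of 8 and positive in 1 (median −0.90). Rgs5, a regulator of G protein signalling that marks pericytes (GRCm38 chr1:169655501-169695813), had 457 and 445 CPM in WT VEH, 642, 713 and 642 CPM in WT JZL184, 759.8, 643 and 641 CPM in CD VEH, and 451, 449 and 457 CPM in CD JZL184, and its interaction was −1.15 ± 0.12 (log2 ± SE, edgeR adjusted p = 0.00011). Vtn had −1.36 ± 0.11, and the positive gene was Abcc9 (0.59), a subunit of potassium channels that cardiomyocytes also carry, named after its value was seen.

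Of 9 smooth muscle markers 6 were tested, 5 were negative and 1 was positive (median −1.48). Myl9, a myosin light chain of smooth muscle (GRCm38 chr2:156775420-156781658), had 10.9 and 9.51 CPM in WT VEH, 26.4, 23 and 18.2 CPM in WT JZL184, 20.6, 17.8 and 16.2 CPM in CD VEH, and 10.1, 10.3 and 9 CPM in CD JZL184. Levels in WT JZL184 and CD VEH were higher than in every mouse of the other groups, with an interaction of −2.03 ± 0.20 (log2 ± SE, edgeR adjusted p = 8.93e-05). Tagln, an actin-binding protein, had −2.0 ± 0.28, and Acta2, smooth muscle actin, had −0.75 ± 0.26 with overlapping groups, which no longer passed when any of 6 single mice was left out or with the length offset. The positive gene, Smtn (0.73), was named after its value was seen. The actin cytoskeleton list was negative in 21 of 24 and positive in 0 (median −0.91), led by the actin-sequestering thymosins Tmsb4x and Tmsb10 at −1.55 ± 0.20 and −1.35 ± 0.26.

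Promoter letters were read in the 250 bases before each RefSeq start site (GRCm38.p6), which matched 8883 of the tested genes by symbol, to see whether genes moving in the same direction shared a motif. The MEF2 motif, bound by a muscle transcription factor, was found before 2.94% of the positive, 1.5% of the negative and 2.16% of the tested genes, and before 3.42% of all 27025 genes with a promoter. The CArG box, bound by serum response factor, was found before 1.74%, 1.54%, 1.46% and 1.62%, in the same order. TATAAA was found before 7.48%, 9.07%, 7.95% and 14.3%, CCAAT before 37.3%, 41.1%, 40.4% and 37.5%, GGGCGG before 68.2%, 61.8%, 65.1% and 35.4%, CACGTG before 10.5%, 8.41%, 10.1% and 6.86%, and CCGGAA before 25.3%, 21.5%, 25.7% and 13.6%, counting both strands and with motifs allowed to overlap. These are descriptions of letters. Below are 80 or fewer bases around a MEF2 motif or CArG box (in capitals) before 6 of the genes named for their interaction, 4 of them positive (Ttn, Esrrg, Prune2 and Fhl1) and 2 negative (Myl9 and Meox2), printed 5′ to 3′ on the strand of the gene.
Ttn, MEF2 motif, GRCm38.p6 chr2:76982669-76982748, minus strand: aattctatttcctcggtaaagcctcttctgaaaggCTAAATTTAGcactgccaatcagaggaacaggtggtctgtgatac
Esrrg, MEF2 motif, GRCm38.p6 chr1:187608949-187609005, plus strand: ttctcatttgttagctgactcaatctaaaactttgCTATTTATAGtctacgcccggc
Prune2, CArG box, GRCm38.p6 chr19:16956003-16956082, plus strand: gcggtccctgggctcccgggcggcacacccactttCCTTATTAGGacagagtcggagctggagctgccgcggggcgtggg
Fhl1, CArG box, GRCm38.p6 chrX:56779546-56779625, plus strand: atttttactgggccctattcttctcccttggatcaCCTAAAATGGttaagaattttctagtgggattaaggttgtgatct
Myl9, CArG box, GRCm38.p6 chr2:156775268-156775347, plus strand: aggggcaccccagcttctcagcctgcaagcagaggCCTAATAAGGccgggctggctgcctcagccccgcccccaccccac
Meox2, MEF2 motif, GRCm38.p6 chr12:37108473-37108539, plus strand: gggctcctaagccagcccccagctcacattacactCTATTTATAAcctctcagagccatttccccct
Among these 6 genes the CArG box stood before the positive Prune2 and Fhl1 (interactions 1.62 ± 0.22 and 0.53 ± 0.09) and the negative Myl9, and the MEF2 motif before the positive Ttn and Esrrg and the negative Meox2.

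Immune genes were also on the negative side. Macrophage markers were negative in 11 of 12 and positive in 0 (median −1.29), with Cx3cr1 (−0.74, edgeR adjusted p = 0.0646) as the exception. C1qc, a chain of complement component C1q made by resident macrophages (GRCm38 chr4:136889804-136893065), had 27.9 and 31.2 CPM in WT VEH, 40.7, 72.8 and 56.7 CPM in WT JZL184, 50.5, 43.9 and 58.9 CPM in CD VEH, and 25.9, 31.9 and 28.1 CPM in CD JZL184. WT JZL184 mouse B was the highest, no mouse of WT VEH or CD JZL184 reached those of the other groups, and the interaction was −1.78 ± 0.27 (log2 ± SE, edgeR adjusted p = 0.000371). C1qa had −1.65 ± 0.25, and Cd68, a lysosomal protein of macrophages at only 3.35 to 9.46 CPM, had −1.54 ± 0.27. The summed level of the 12 markers was 314 to 328 CPM in WT VEH, 412 to 693 CPM in WT JZL184, 416 to 537 CPM in CD VEH and 281 to 324 CPM in CD JZL184.

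Antigen presentation and chemokines moved with them. MHC class I and interferon-stimulated genes were negative in 24 of 25 and positive in 0 (median −1.22). B2m, the invariant chain of MHC class I (GRCm38 chr2:122147686-122153083), had 119 and 121 CPM in WT VEH, 205, 283 and 218 CPM in WT JZL184, 216, 203 and 242 CPM in CD VEH, and 119.7, 165 and 147 CPM in CD JZL184. The WT VEH and CD JZL184 mice, at 119 to 165 CPM, did not reach those of the other groups, and the interaction was −1.59 ± 0.20 (log2 ± SE, edgeR adjusted p = 0.000206). Ube2l6, which joins the interferon-induced modifier ISG15 to proteins, had −1.92 ± 0.59, but CD VEH mouse A was at 51.3 CPM against 8.72 to 17.9 CPM in all other mice, and without it the estimate was −1.05. MHC class II genes were negative in 6 of 7 (median −1.37, and −0.97 with the length offset), with H2-Aa at −1.64 ± 0.28, and members of this family are similar enough for reads to be shared. Chemokines were negative in 8 of 9 (median −1.75, and −1.22 with the length offset), led by Ccl6 at −2.17 ± 0.38 and by platelet factor Pf4 at −1.93 ± 0.31.

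**Figure D4:**
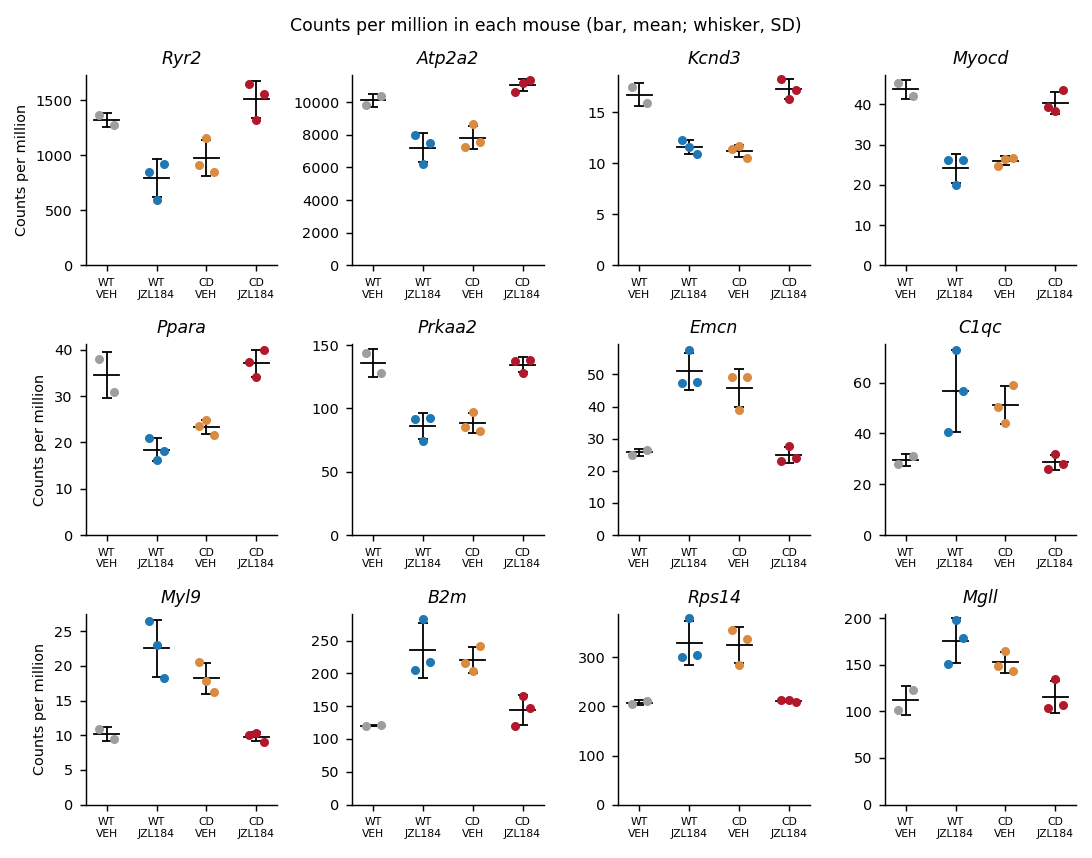
CPM of 12 genes in each mouse by group (points), with the group mean (bar) and SD (whisker, n = 2 for WT VEH and n = 3 otherwise). Ryr2, Atp2a2, Kcnd3, Myocd, Ppara and Prkaa2 are highest in WT VEH and CD JZL184, and Emcn, C1qc, Myl9, B2m, Rps14 and Mgll are highest in WT JZL184 and CD VEH.

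Fibroblast genes were split. Markers were negative in 7 of 10 and positive in 0 (median −0.75), but the 3 fibrillar collagen genes among them were not called: Col1a1 at 0.16, Col1a2 at −0.22 and Col3a1 at −0.26 (edgeR adjusted p = 0.544, 0.276 and 0.315). Lum, a collagen-binding proteoglycan, and Postn, a matrix protein of activated fibroblasts, had −1.24 ± 0.18 and −1.27 ± 0.25. Of 27 collagen and matrix genes 11 were negative and 0 positive (median −0.29). The count was 7 without WT VEH mouse D and 16 with the length offset (median −0.51). Sparc, a collagen-binding matrix protein (GRCm38 chr11:55394500-55423183), had 206 and 230.3 CPM in WT VEH, 311, 409 and 347 CPM in WT JZL184, 316, 319.6 and 437 CPM in CD VEH, and 189, 278 and 218 CPM in CD JZL184. All 5 WT VEH and CD JZL184 mice lay below the other 6, with an interaction of −1.35 ± 0.24 (log2 ± SE, edgeR adjusted p = 0.000952). Of 23 TGF-beta and SMAD genes 11 were negative and 4 positive (median −0.45), and the lowest were Id3 and Id1, targets of BMP signalling, at −1.59 ± 0.16 and −1.51 ± 0.20.

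**Figure D5:**
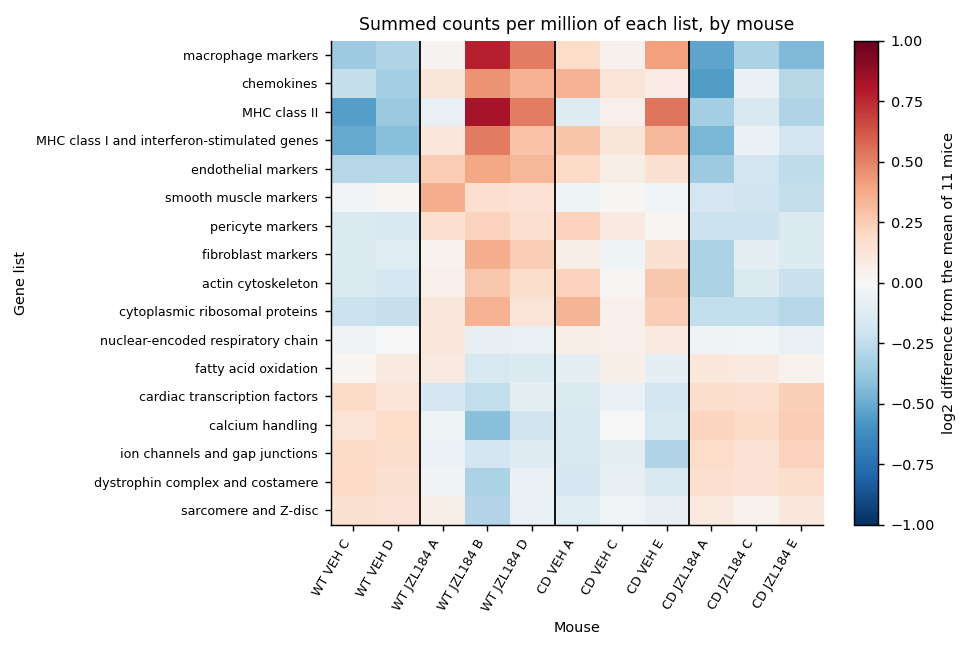
Summed CPM of 17 gene lists (rows) in each of the 11 mice (columns, grouped by vertical lines), as the log2 difference from the mean over the mice. Vascular, immune and ribosomal rows are below the mean in WT VEH and CD JZL184, with the smooth muscle sum near the mean in WT VEH. Rows of contraction, excitation, costamere, cardiac transcription factor and fatty acid oxidation genes are above the mean in both groups. The cardiomyocyte marker list is not among the rows, and its sums overlapped between all groups but WT VEH.

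Cytoplasmic ribosomal proteins were negative almost throughout, with 77 of 78 genes called, 73 crossing and 75 separating the 5 from the 6 mice (median −0.94). Rps14, a protein of the small subunit, had 205 and 211 CPM in WT VEH, 301, 380.5 and 305 CPM in WT JZL184, 356, 284 and 337 CPM in CD VEH, and 214, 212 and 209 CPM in CD JZL184, and its interaction was −1.28 ± 0.15 (log2 ± SE, edgeR adjusted p = 0.000159). Rpl34, of the large subunit, had −1.22 ± 0.15, and Rps27 (−0.27, edgeR adjusted p = 0.621) was not called. These genes are short (median 1077 bases over the list), and with the length offset 59 were negative with a median of −0.50, against 75 and −0.77 with that of the median transcript. Many have near-identical pseudogene copies, so single values are uncertain. Translation factors did not share the pattern as a list (11 negative, 9 positive, 22 not called of 42, and 6 negative with the length offset), although the elongation factor Eef1a1 had −1.33 ± 0.23 and the scaffold Eif4g1 had 0.79 ± 0.10.

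Mitochondrial lists had medians nearer to 0, and their values depended on how length was treated. Over all tested genes 25.3% were positive and 26.2% negative. Nuclear-encoded respiratory chain genes were negative in 45 of 76 and positive in 7 (median −0.38), but with the length offset 10 were negative and the median turned to 0.14. With the offset of the median transcript 29 were negative and the median stayed below 0, at −0.18. Ndufv3, a subunit of complex I (GRCm38 chr17:31520115-31531331), had 137 and 154 CPM in WT VEH, 207, 206 and 178 CPM in WT JZL184, 185, 198 and 207 CPM in CD VEH, and 131, 148 and 130.1 CPM in CD JZL184. It separated the 5 from the 6 mice, with an interaction of −0.97 ± 0.13 (log2 ± SE, edgeR adjusted p = 0.000219), whereas Cox7a2, a short subunit of complex IV, went from −0.84 ± 0.10 to −0.20 (edgeR adjusted p = 0.152) with the offset and −0.60 with that of the median transcript. Of 13 mitochondrial genome proteins 9 were negative and 0 positive (median −0.48), and 0 were negative at a median of −0.09 with the offset, against 7 at −0.40 with that of the median transcript. Among them mt-Co3, a subunit of complex IV, had −0.94 ± 0.15. Of 76 mitochondrial ribosomal proteins 25 were negative and 8 positive (median −0.13, 0.17 with the offset and −0.03 with that of the median transcript), and Mrpl42 had −0.76 ± 0.11. Proteasome genes were negative in 10 and positive in 5 of 31 (median −0.13, 0.18 with the offset and −0.08 with that of the median transcript), and 6 were negative without WT VEH mouse C or CD VEH mouse E.

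Within the endocannabinoid system the gene of the drug's target itself crossed. Mgll (GRCm38 chr6:88724412-88828360) had 101 and 123 CPM in WT VEH, 150.5, 198 and 178 CPM in WT JZL184, 148, 165 and 144 CPM in CD VEH, and 104, 135 and 107 CPM in CD JZL184. All 6 WT JZL184 and CD VEH mice lay above the other 5, the JZL184 effect was 0.65 in WT and −0.40 in CD mice, and the interaction was −1.05 ± 0.19 (log2 ± SE, edgeR adjusted p = 0.000925). Of the 15 listed genes 9 were tested and 3 called, 2 of them negative (1 without WT VEH mouse C). The others were Gde1, a phosphodiesterase acting on endocannabinoid precursors, at −0.30 ± 0.09 (0 with the length offset), and Napepld, which makes anandamide, at 0.59 (edgeR adjusted p = 0.002), named after its value was seen. Dagla and Daglb, the synthetic enzymes for 2-arachidonoylglycerol, were at 0.29 and 0.10 and were not called. Cnr1 was listed at 0 to 0.0408 CPM, at or near the level of 3 counts, and Cnr2 at 0.564 to 1.56 CPM, both below the filter, so neither was tested.

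Receptors and G proteins were divided by direction, with 11 of 27 genes positive and 10 negative (median 0.00). The positive genes included the adenylyl cyclases Adcy5 (0.70), Adcy6 (0.95) and Adcy9 (0.93), the muscarinic receptor Chrm2 (0.98) and the alpha-adrenergic receptor Adra1a (1.15), named after their values were seen. The negative genes were led by the G protein gamma subunits Gng11 and Gngt2 at −1.45 ± 0.20 and −1.40 ± 0.15.

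In the deleted interval 14 of 22 genes were tested, 6 were positive and 3 negative (median 0.10), on top of the lower copy number. Gtf2i, a transcription factor at one end of the interval (GRCm38 chr5:134237834-134314760), had 129 and 123 CPM in WT VEH, 99.4, 95.2 and 105 CPM in WT JZL184, 53.9, 57.2 and 51.2 CPM in CD VEH, and 66.4, 65.9 and 68.2 CPM in CD JZL184. It was lower in every CD than in every WT mouse, fell with JZL184 in WT and rose in CD mice, and the interaction was 0.64 ± 0.09 (log2 ± SE, edgeR adjusted p = 0.000273). Baz1b, a chromatin protein, had 0.69 ± 0.11, and Mlxipl, a glucose-responsive factor, had 0.75 ± 0.13, with a fall in WT (−0.62) and 0.13 in CD mice, which did not pass. Eln, which encodes elastin (GRCm38 chr5:134702593-134747323), had 34.8 and 36.4 CPM in WT VEH, 37.7, 52.6 and 42.7 CPM in WT JZL184, 15.8, 21.6 and 26.5 CPM in CD VEH, and 12, 17.9 and 16.9 CPM in CD JZL184. Its interaction was −0.76 ± 0.28 (log2 ± SE, edgeR adjusted p = 0.0377), and it no longer passed when any of 7 single mice was left out or with robust estimation. The other negative genes, Clip2 (−0.88) and Bcl7b (−0.26), were named after their values were seen.

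Erythroid genes had the most negative median, −2.92 over 6 tested genes with 5 called, and the size of the difference depended on 1 mouse. Hbb-bs, a beta globin, had 1167 and 935 CPM in WT VEH, 1800.4, 2476 and 1199.8 CPM in WT JZL184, 9026, 1263 and 936 CPM in CD VEH, and 663, 982 and 848 CPM in CD JZL184. CD VEH mouse A alone stood far above the rest, and the 3 WT JZL184 mice lay above all WT VEH and CD JZL184 mice, with an interaction of −2.97 ± 1.01 (log2 ± SE, edgeR adjusted p = 0.0284). Without this mouse the list median was −1.25 with 4 genes called, and without either WT VEH mouse, with robust estimation or with the length offset (median −2.23) 0 were called. The count was 2 without CD JZL184 mouse A, 3 without WT JZL184 mouse B and 4 with the offset of the median transcript. Reads of the near-identical globin copies, Hba-a1 and Hba-a2 among them, may be divided between them.

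Several stress-related lists were mixed, where 25.3% of all tested genes were positive and 26.2% negative. The positive counts of the heat shock, autophagy and hypertrophy lists and the negative count of the glucocorticoid-responsive list lay near these shares. Of 16 immediate early genes 8 were negative and 0 positive (median −0.67), led by Ier2 at −1.16 ± 0.27, and the count was 4 without WT VEH mouse D and 5 without CD JZL184 mouse E, WT VEH mouse C or CD VEH mouse A. Of 20 antioxidant genes 9 were negative and 3 positive (median −0.25), and with the length offset 4 were negative. Gpx1, glutathione peroxidase, and the ferritin light chain Ftl1 had −1.28 ± 0.29 and −1.13 ± 0.19. Of 24 heat shock chaperones 7 were positive and 1 negative (median 0.24, 11 positive at 0.45 with the length offset, and 12 positive without WT JZL184 mouse A), Hspa9, the mitochondrial chaperone, having 0.77 ± 0.14. Of 37 autophagy genes 11 were positive and 5 negative (median 0.07), of 11 glucocorticoid-responsive genes 1 was positive and 3 negative (median −0.19), and of 18 circadian clock genes 2 were positive and 0 negative (median 0.37). With the length offset 1 glucocorticoid-responsive gene was negative and 1 clock gene was positive (median 0.14). The clock count was 0 without WT VEH mouse C, 4 without WT JZL184 mouse A, 6 without WT JZL184 mouse B, and 1 without CD JZL184 mouse A or E, WT VEH mouse D or CD VEH mouse A. The glucocorticoid-responsive count was 1 without WT VEH mouse C. In the hypertrophy and foetal list 2 of 8 were positive, Myh7 and Fhl1 (median 0.34, and 0.69 with the length offset), and the natriuretic peptide Nppa was not called, with 192 and 169 CPM in WT VEH, 148, 220.2 and 109 CPM in WT JZL184, 49.2, 91.9 and 146 CPM in CD VEH, and 124, 106 and 72.8 CPM in CD JZL184 and an interaction of 0.26 ± 0.51 (log2 ± SE, edgeR adjusted p = 0.689), which was 0.82 with the length offset.

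Of the lists with few tested genes, adipocyte markers gave 1 positive and 1 negative of 2, mesothelial markers 1 negative of 1 and Schwann cell markers 1 negative of 3. Without WT VEH mouse D the mesothelial gene was not called, and without WT JZL184 mouse A or CD JZL184 mouse A 2 Schwann cell genes were negative. Fabp4, a fatty acid binding protein on the adipocyte list that capillary endothelium also makes, had −1.60 ± 0.19, while Adipoq, a defining adipocyte gene, was at 0.013 to 0.294 CPM.

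Outside the lists, the smallest p values fell to Cav2, a caveolin, Cd200, an immune ligand of endothelium, and Lpar6, a lysophosphatidic acid receptor, with −1.38 ± 0.10, −1.43 ± 0.10 and −1.49 ± 0.11, and on the positive side to Jmy, Prob1 and Dvl3 with 1.11 ± 0.09, 1.10 ± 0.09 and 1.09 ± 0.10. Each of these 6 genes separated the 5 from the 6 mice. The highest and lowest estimates among called genes with a mean of at least 10 CPM were less even between mice. Lars2, the mitochondrial leucyl-tRNA synthetase, had 1601 and 620.3 CPM in WT VEH, 631, 365 and 404 CPM in WT JZL184, 367, 337 and 393 CPM in CD VEH, and 515, 507 and 526 CPM in CD JZL184. WT VEH mouse C was far above all others, the interaction was 1.75 ± 0.41 (log2 ± SE, edgeR adjusted p = 0.00453), and without that mouse it was 0.91 (edgeR adjusted p = 0.0279). Cyp26b1, which breaks down retinoic acid, had 2.36 and 12.7 CPM in WT VEH, 24.6, 17.4 and 17.4 CPM in WT JZL184, 15.5, 48.3 and 10.8 CPM in CD VEH, and 2.76, 6.4 and 2.75 CPM in CD JZL184. Values ranged widely, with all WT JZL184 mice above both WT VEH mice and all CD VEH mice above all CD JZL184 mice, and the interaction was −4.01 ± 0.95 (log2 ± SE, edgeR adjusted p = 0.00446).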

How the data were processed

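RNA from 11 mouse hearts was sequenced by the authors, who deposited estimated counts of each gene in each mouse, in 1 table and without normalization. Per the labels and the study's methods, these were made with Salmon 0.7.2 on Ensembl transcripts of GRCm38 (mm10) and summed to genes with tximport. Columns name a group and a letter, so groups were taken from the column names, and 0 columns were left without a group. Nothing was pooled. The sources describe the mice as biological replicates.

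The estimated counts were rounded and tested here with edgeR 4.0.16 and limma 3.58.1 under R 4.3.3, using TMM scaling and the quasi-likelihood F test. Genes whose log2 CPM averaged 1 or more over the mice were kept, in a model with 4 group means, and p-values were adjusted over all 11319 genes by Benjamini-Hochberg. CPM are counts per 1000000, scaled by TMM. The contrasts averaged over genotypes or treatments were added after the data were seen. The standard error is the estimate divided by the root of its F statistic. The common biological coefficient of variation was 9.13%. Alternatives were DESeq2 1.42.0, RLE and upper quartile scaling, other filters, loess offsets (span 0.5) for transcript length and GC content, robust estimation and leaving out each mouse. The fit was tested on simulated counts with known changes. Salmon had estimated the counts without a stated correction for length or sequence bias in the sources used here.

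Genes were matched by identifier to GENCODE vM21 (22315 of 22608) for symbols, positions, transcript lengths and GC content. A gene's length is that of its longest transcript, preferred after the median over transcripts was seen to be set by short fragments (542 bases for Myh6). The 46 gene lists hold 1005 entries, some genes in several lists. Members and lists were chosen with earlier results of these data known. Genes named in the text are, by rule, the 2 largest called interactions of each list with a mean of at least 10 CPM, the 6 highest and 6 lowest of all called genes with that mean, the 3 smallest p in each direction, and Mgll, Cnr1, Cnr2, Gtf2i, Baz1b, Eln, Ttn, Myh6, Ryr2, Atp2a2, Nppa, Pecam1, Cdh5, Col1a1, Acta2 and Cd68. Some genes of the rule are not reported here, and others are said to be named after their values were seen. Precision is set by the number of mice, as total counts were at least 69660232 per mouse. Figures were drawn with matplotlib.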

Additional observations from a re-analysis of the deposited data

Results flagged for a closer look

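The JZL184 effect differed between WT and CD mice by the test of the interaction itself for 5828 genes, and 2295 genes crossed. The same test passed for the genes whose values were given mouse by mouse above, except Nppa. Most of these genes were chosen among called genes, so their passing adds no support. Among genes of contraction, excitation and their control the interaction (log2 ± SE) was 1.37 ± 0.24 for Ryr2, 0.99 ± 0.15 for Atp2a2, 1.15 ± 0.11 for Kcnd3, 0.94 ± 0.21 for Myh6, 1.69 ± 0.26 for Myh7, 1.73 ± 0.40 for Ttn and 1.49 ± 0.14 for Myocd. In energy metabolism it was 1.58 ± 0.16 for Ppara, 0.80 ± 0.11 for Cpt1b, 1.27 ± 0.14 for Prkaa2, −0.97 ± 0.13 for Ndufv3 and 1.75 ± 0.41 for Lars2. In vessels and matrix it was −1.86 ± 0.17 for Emcn, −1.08 ± 0.11 for Pecam1, −1.65 ± 0.13 for Meox2, −1.15 ± 0.12 for Rgs5, −2.03 ± 0.20 for Myl9 and −1.35 ± 0.24 for Sparc. Immune, ribosomal and red cell genes had −1.78 ± 0.27 for C1qc, −1.59 ± 0.20 for B2m, −1.28 ± 0.15 for Rps14 and −2.97 ± 1.01 for Hbb-bs. The value was −1.05 ± 0.19 for Mgll, 0.64 ± 0.09 for Gtf2i, −0.76 ± 0.28 for Eln and −4.01 ± 0.95 for Cyp26b1. Some of these values were unstable, as given above. Ttn lost its call with the length offset, and Eln lost its call when any of several single mice was left out. The size of the Lars2 value depended on WT VEH mouse C, and that of Hbb-bs on CD VEH mouse A. No group had more than 3 mice, so single mice were not tested as outlying within a group.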

How the results depend on the processing

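For the counts of interaction, positive, negative and crossing genes, 22 other settings were planned. DESeq2, other scalings and filters, offsets for length or GC content and the fit without mitochondrial genes kept these counts within 1.5 times of those reported. Leaving out 1 mouse kept all of them but the crossing count there. Several counts of single lists moved further, as given below. With an adjusted p under 0.01, 3883 genes had an interaction, 1895 of them positive, and 641 crossed. With an absolute log2 value of at least 1 there were 822, with 189 positive, 633 negative and 1 crossing gene. Leaving out 1 mouse gave 4579 to 6412 genes with an interaction, 447 to 2863 crossing genes, 0 to 6 erythroid, 0 to 1 mesothelial, 1 to 2 Schwann cell, 6 to 15 proteasome, 1 to 3 endocannabinoid, 7 to 13 collagen and matrix, 4 to 8 immediate early and 1 to 4 glucocorticoid-responsive negative genes, and 4 to 7 PPAR and ERR, 5 to 15 fatty acid oxidation, 0 to 6 clock and 5 to 12 heat shock positive genes.

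With the length offset, negative genes numbered 0 erythroid, 10 respiratory chain, 0 mitochondrial genome, 10 mitochondrial ribosomal, 6 translation factor, 2 proteasome, 1 endocannabinoid, 4 antioxidant and 1 glucocorticoid-responsive, and positive genes 17 fatty acid oxidation, 1 clock and 11 heat shock. With the median transcript length, an alternative chosen after seeing the data, they were 29 respiratory chain, 12 mitochondrial ribosomal, 7 translation factor, 6 proteasome and 1 endocannabinoid. The GC offset left 1 endocannabinoid gene, upper quartile scaling 1 clock gene and robust estimation 0 erythroid genes. Without the filter there were 8 smooth muscle, 2 Schwann cell and 14 chemokine genes, and with at least 10 counts in every mouse 2 and 13. Nppa, at 0.26, lay between −0.05 (without CD VEH mouse A) and 0.71 when 1 mouse was left out, and with the length offset Nppa came to 0.82, Col1a1 to 0, Gde1 to 0 and Mrps21 to 0.02. The cause of these shifts was not tested. Among the named genes, 1982 values kept their direction and side of the threshold, 91 lost the call and 4 reversed (−0.05 for Nppa and the values just given for Col1a1, Gde1 and Mrps21).

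Low counts limited the test to 11319 of 22608 genes, and WT VEH had 2 mice, so that leaving out 1 assumes the other to vary like the remaining groups. No paired analysis was possible because the columns of the table carry letters that are in no sample label.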
